A study of Mus musculus with 3 samples.

Results

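Matrix vesicles (MVs) are small vesicles that osteoblasts bud into the unmineralized bone matrix. MVs of the osteoblastic MC3T3-E1 line, an established line from mouse calvaria, were isolated 3 times independently with 500 units/mL collagenase and ultracentrifugation, and 100 ng of their total RNA was measured on 1 single-dye (Cy3) mouse miRNA array for each isolation. All 3 arrays belong to 1 group of MVs grown in osteogenic medium, with no array of the parent cells, of muscle or of another condition analysed here, so no groups were compared. The sample labels state that β-glycerophosphate was added, whereas the methods take MVs from cultures without it. The miRNAs described are the striated muscle miRNAs miR-206, miR-1a, miR-133a and miR-133b. They are 9 of the 1079 mouse miRNA features, found by their names (any arm). The lead miRNA, mmu-miR-206-3p, was chosen by its detection and signal in these same arrays, so its values are given as a description and carry no test.

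The miRNAs of this group are characteristic of striated muscle. miR-1 and miR-206 share their seed, the bases that pair with target mRNAs, and promote myogenic differentiation, whereas miR-133 has another seed and is known to act on muscle cell proliferation. Each is transcribed with a partner, miR-206 with miR-133b and each copy of miR-1a with a copy of miR-133a. In bone, miR-206 has been described as a repressor of osteoblast differentiation that acts on the gap junction gene Gja1, and miR-133a as one of several miRNAs that act on Runx2, the master transcription factor of osteoblasts.

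Mature sequences were taken from RefSeq (GRCm38.p6), which held 5 of the 9 members. They are shown because the detected miRNA can be told from its arm partner and its cluster mate by sequence. Bases 2 to 8, the seed, are in capitals.
miR-206-3p (chr1:20679055-20679076, plus strand): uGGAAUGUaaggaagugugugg
miR-206-5p (chr1:20679017-20679039, plus strand): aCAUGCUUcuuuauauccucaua
miR-1a-1-5p (chr2:180389057-180389079, plus strand): aCAUACUUcuuuauaugcccaua
miR-133b-3p (chr1:20682834-20682855, plus strand): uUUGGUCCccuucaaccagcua
miR-133b-5p (chr1:20682797-20682818, plus strand): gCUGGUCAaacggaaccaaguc
The seed of miR-206-3p was found in 3 of the 1679 mature names of the table searched, and the other 2, miR-6349 and miR-6382, have no feature on the array. The table does not hold miR-1a-3p, which is known to share this seed. The 5p arms of miR-206 and miR-1a-1 carry the same base at 20 of 23 positions but have different seeds. In contrast, miR-206-3p and its cluster mate miR-133b-3p carry the same base at only 4 of 22 positions. On the genome, miR-133b-3p starts 3779 bases after miR-206-3p on the same strand, and both genes lie within the span of Lincmd1, a long non-coding RNA gene known from muscle differentiation. Mir1a-1 and Mir133a-2 likewise lie within Mir1a-1hg, another long non-coding RNA gene. The array tables carry no coordinates of their own.

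Of the 9 members, only miR-206-3p was detected, and it was detected in each of the 3 isolations. Detection follows the call of the scanner software, and every undetected feature carries the same deposited signal of 0.1. The total gene signal of miR-206-3p, a linear intensity, was 7.71 with an error of 2.55 in isolation 1, 37.4 with an error of 4.44 in isolation 2 and 21.7 with an error of 3.77 in isolation 3. It was thus lowest in isolation 1 and highest in isolation 2, and the readings lie further apart than their errors. On the log2 scale the signals were 2.95, 5.22 and 4.44 (4.20 ± 1.16, SD, n = 3). Of all mouse miRNAs, isolation 1 detected 7.97%, isolation 2 16.6% and isolation 3 15.2%, so that 1 of 9 members in each array (11.1%) is close to the share over the whole array. In at least 1 isolation 16.7% of the mouse miRNAs were detected, and in all 3 isolations 7.78%, against 11.1% of the members in either case. Since the group was built around a detected miRNA, nothing is read from these shares.

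**Figure D1:**
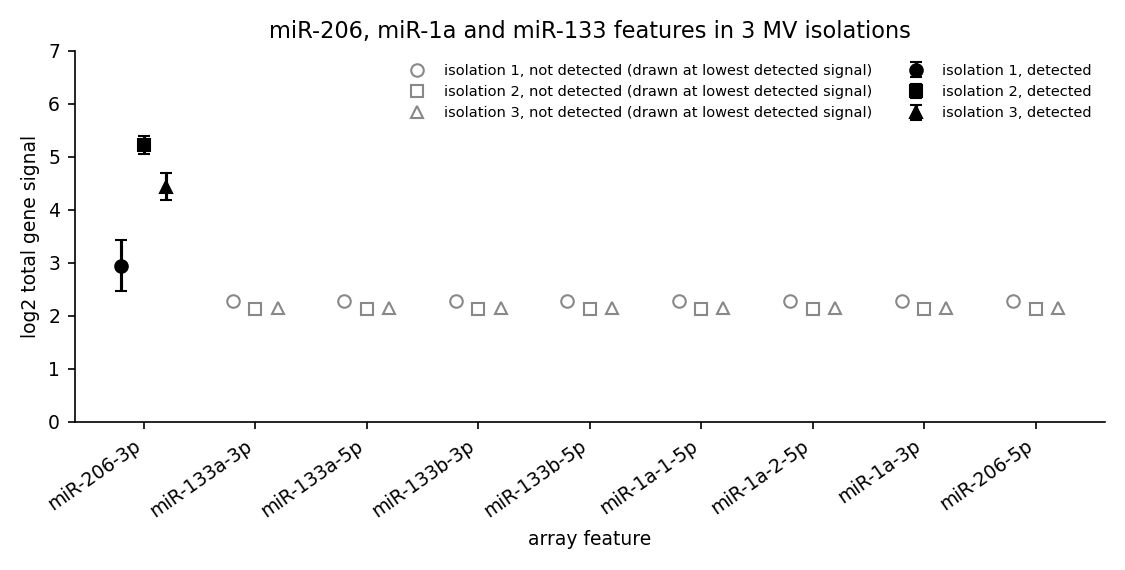
The log2 total gene signal (y axis) of each of the 9 features (x axis) in isolations 1 (circles), 2 (squares) and 3 (triangles), with bars for the error of the signal. Filled symbols are detected readings, at 2.95, 5.22 and 4.44 for miR-206-3p, and open symbols are undetected features, whose level is unknown and which are drawn at the lowest detected signal of the array.

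None of the other members was detected in any isolation. These are miR-206-5p, the other arm of the same hairpin, the cluster mate miR-133b (both arms), miR-133a (both arms), miR-1a-3p, which has the seed of miR-206-3p, and the 2 passenger arms miR-1a-1-5p and miR-1a-2-5p. The lowest signal detected for any mouse miRNA was 4.87, 4.39 and 4.41 in isolations 1, 2 and 3, and miR-206-3p lay 0.66, 3.09 and 2.30 log2 units above it (2.02 ± 1.24, SD, n = 3). This is not a strict limit for the undetected members, because errors differ between features and no feature was detected with a signal under 3 times its error. Features that were only just detected, at less than 3.5 times their error, had signals of 7.71 to 8.80 in isolation 1, 4.39 to 9.25 in isolation 2 and 4.41 to 8.99 in isolation 3. The signal of miR-206-3p was 4.04-fold the highest of these in isolation 2 and 2.41-fold in isolation 3, but in isolation 1 it was the lowest of the 9 features of this kind. In isolation 1, therefore, the arrays do not separate miR-206-3p from a level at which the other members could have gone undetected. Probes also differ in their response, so all orders given here are orders of signals and not of RNA amounts. In total RNA of vesicles, fewer vesicles that carry a miRNA and fewer copies in each vesicle cannot be told apart.

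Reliability of the reading differed between isolations in the same way. The signal of miR-206-3p was 3.02 times its error in isolation 1, 8.43 times in isolation 2 and 5.76 times in isolation 3 (5.73 ± 2.70, SD, n = 3). The ratio in isolation 1 was the lowest of all 86 miRNAs detected there, where the median was 7.47. In isolation 2 it was near the median of 8.59, with 88 of 179 detected miRNAs below it, and in isolation 3 it was below the median of 7.79, with 53 of 164 miRNAs below it. Requiring a signal over 5 times its error in every isolation, a setting chosen after seeing the data, leaves 0 of the 9 members, since miR-206-3p then fails in isolation 1 and passes in the other 2.

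**Figure D2:**
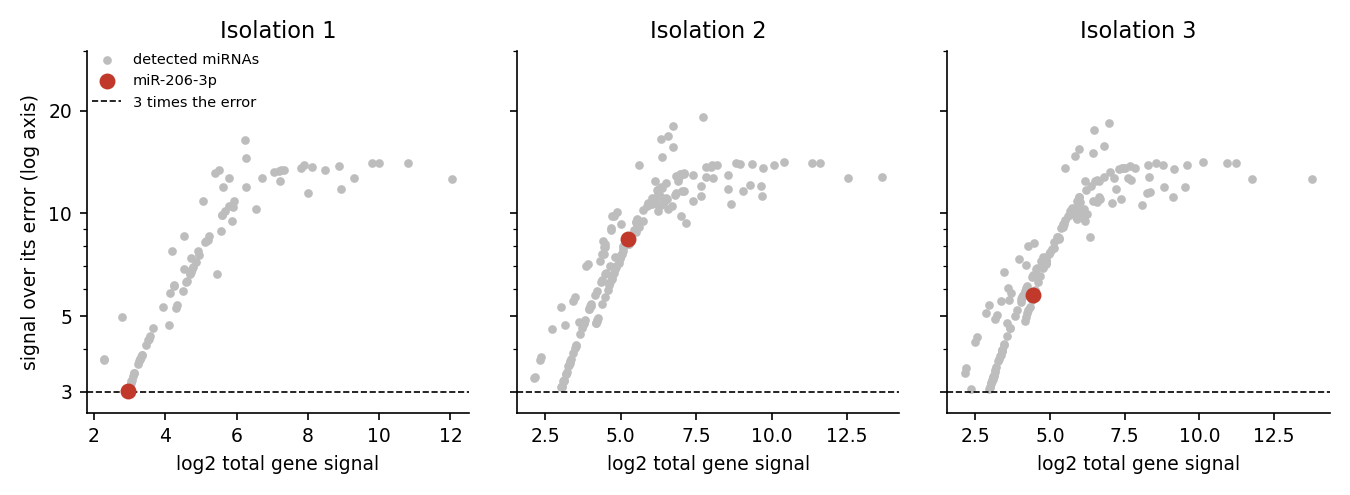
Signal over its error (y axis, log scale) against log2 total gene signal (x axis) for the detected mouse miRNAs of each isolation (grey), with miR-206-3p in red and 3 times the error as a dashed line. miR-206-3p sits on the dashed line in isolation 1 (3.02) and within the cloud in isolations 2 (8.43) and 3 (5.76).

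By signal, miR-206-3p held place 83 of 86 detected miRNAs in isolation 1, place 89 of 179 in isolation 2 and place 98 of 164 in isolation 3. It was thus near the end of the order in isolation 1 and around the middle in the others, where its log2 signal was 0.14 above and 0.47 below the median of the detected miRNAs. The middle place depends on the features detected only in those arrays. Among the 84 miRNAs detected in all 3 isolations, it held places 82, 68 and 74, towards the dim end in each. It took 0.0569%, 0.0880% and 0.0617% of the summed signal of detected miRNAs in isolations 1, 2 and 3 (0.0689% ± 0.0168, SD, n = 3). After subtraction of the array's own 90th percentile (mouse miRNAs, log2), its values were 6.27, 0.51 and 0.26 (2.35 ± 3.40, SD, n = 3). Isolation 1 thus came out highest instead of lowest, and in this isolation the percentile falls on the signal of undetected miRNAs (-3.32 on the log2 scale). With the undetected miRNAs at the lowest detected signal instead, a setting chosen after seeing the data, the values were 0.66, 0.51 and 0.26. In isolation 1 the percentile then falls on that lowest signal, so this value is still not comparable with the others. Signals on the log2 scale without a shift are therefore used for what follows.

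Several neighbors of miR-206-3p in this order could not be told apart from it. Signals within 1 error of its own were found for 16 other miRNAs in isolation 1 (places 68 to 84), for 8 in isolation 2 (places 84 to 92) and for 18 in isolation 3 (places 92 to 110). In isolation 1 the next brighter features were miR-1196-5p (7.82), miR-3085-3p (7.89) and miR-1306-3p (8.16), and the next dimmer were miR-466f-5p (6.97), miR-718 (4.89) and miR-762 (4.87), of which the last 2 lay more than 1 error below it. In isolation 2 they were miR-210-3p (37.8), miR-34a-5p (38.0) and miR-296-5p (38.6) on the brighter side and miR-652-5p (34.0), miR-3077-5p (33.7) and miR-195a-3p (33.4) on the other. miR-210 is known as the hypoxia miRNA and miR-34a as a target of p53. In isolation 3, miR-206-3p stood between miR-16-1-3p (21.8) and miR-3077-5p (21.3), next to miR-1931 (22.6), miR-34a-5p (23.1), miR-16-5p (20.9) and miR-1901 (20.8). The features miR-34a-5p and miR-3077-5p were thus among its neighbors in isolations 2 and 3, but no feature was so in all isolations.

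**Figure D3:**
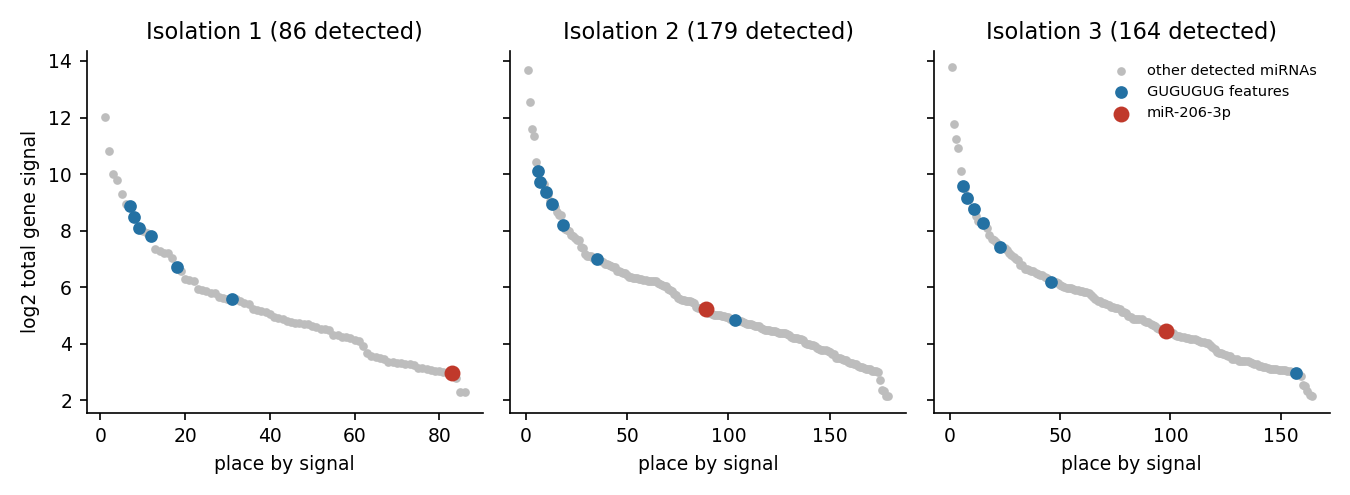
Log2 total gene signal (y axis) of every detected mouse miRNA by its place in the order of signals (x axis) in isolations 1, 2 and 3 (86, 179 and 164 detected). miR-206-3p (red) is at place 83, 89 and 98. The other detected features found to hold the bases GUGUGUG (blue), searched where a sequence was available, are mostly among the bright ones.

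The detection of miR-206-3p without its other arm is the usual case on these arrays. Of the 384 miRNAs with a feature for each arm, 99 had at least 1 arm detected in at least 1 isolation. Exactly 1 arm was detected for 91 of the 99 (91.9%), and this was the 3p arm for 37 of them. Detection without the cluster mate was less general when a gene was counted as detected in at least 1 isolation. Within 10000 bases on 1 strand, RefSeq places 58 groups of at least 2 miRNA genes that have a feature on the array, and 33 of them held a detected gene. Of the 20 pairs of genes among these 33, both genes were detected for 14, such as Mir199a-2 with Mir214 and Mir193b with Mir365-1, and 1 gene for 6. The pair of Mir206 and Mir133b is among these 6, with Mir296 and Mir298, Mir26a-2 and Mir546, Mir30c-1 and Mir30e, Mir5132 and Mir718, and Mir98 and Mirlet7f-2. With detection in all 3 isolations required, as miR-206-3p meets, both genes remained only for Mir199a-2 with Mir214, Mir2861 with Mir3960 and Mirlet7b with Mirlet7c-2. More pairs than these had only 1 gene that met this, among them Mir206 with Mir133b and Mir193b with Mir365-1. miR-365-3p, for example, was detected in isolation 2 alone (place 172 of 179, 3.09 times its error). The order thus depends on the number of isolations required. Copies of 1 mature miRNA share a feature, so a gene counted as detected may not be the source of the signal. These counts are a description and the table of genes is not complete.

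Other striated muscle miRNAs were detected for 1 of 9 features (11.1%), against 16.7% of all mouse miRNAs in at least 1 isolation. The list holds features for miR-1b, for miR-208a, miR-208b and miR-499, which lie within myosin heavy chain genes, and for miR-486, which lies within Ank1. Of these, only miR-499-3p was detected, in isolation 2 alone (signal 8.17, 3.09 times its error, place 173 of 179), while miR-499-5p, the arm known as the active one in heart, was not. Taking the 7 miRNAs by which striated muscle is usually recognized, miR-206-3p was the only one detected, and miR-1a-3p, miR-133a-3p, miR-133b-3p, miR-208a-3p, miR-208b-3p and miR-499-5p were without a detected signal in all isolations. The summed signal of this list is hence that of miR-206-3p, between 7.71 and 37.4. For miRNAs known from mesenchymal cells, 6 of 8 names were detected in at least 1 isolation. Their summed signal was 46.0, 986 and 773 in isolations 1, 2 and 3. The lists were chosen with earlier results of these data known, so this count is not read as a difference from the muscle list. Only 4 of the 8 were detected in isolation 1. The names miR-143-3p and miR-145a-5p, also known from mesenchymal cells, were not detected in any isolation. The miRNAs of blood (6 names), epithelium (5) and neurons (3) had 0 detected. With 16.7% of all mouse miRNAs detected in at least 1 isolation, counts of 0 in lists this short are not read as a difference from the array. The 2 arms of the cartilage miRNA miR-140 were detected in isolations 2 and 3. The endothelial miRNA miR-126a-3p matched no feature by name.

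Of the miRNAs known to target Runx2, a group to which miR-133a belongs, 3 of 11 were detected in at least 1 isolation (27.3%, against 16.7% of all mouse miRNAs), and 0 in isolation 1, where 7.97% of all mouse miRNAs were detected. miR-23a-3p had signals of 91.9 and 66.1 in isolations 2 and 3, above those of miR-206-3p in the same arrays. miR-30c-5p (9.61 and 8.40) and miR-34c-5p (9.25 and 8.49) lay below it. The remaining 8, namely miR-133a-3p, miR-135a-5p, miR-137-3p, miR-204-5p, miR-205-5p, miR-217-5p, miR-218-5p and miR-338-3p, were not detected.

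**Figure D4:**
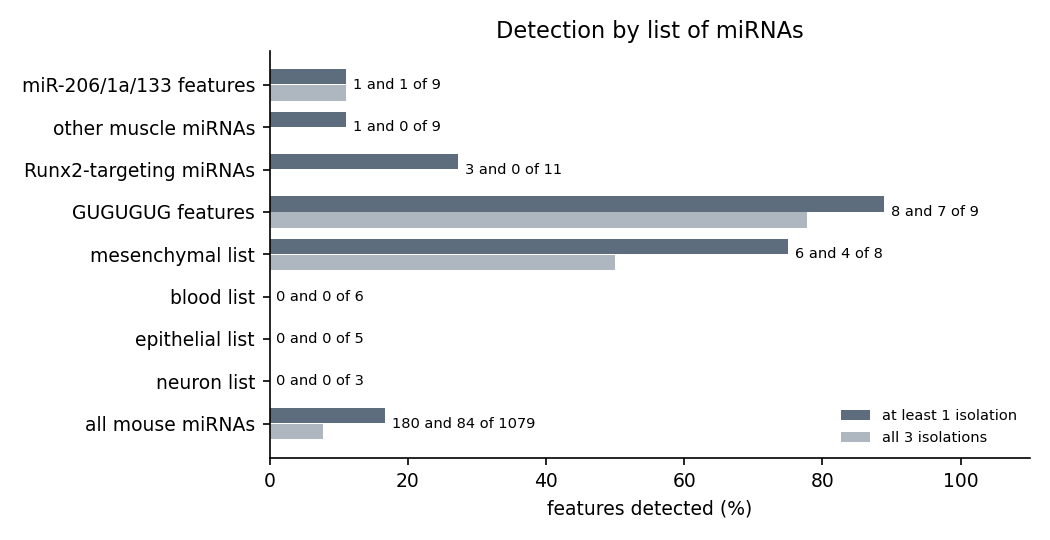
Percent of the features of each list (x axis) that were detected in at least 1 isolation (dark bars) and in all 3 isolations (light bars), with the counts beside each bar. The muscle lists, with 1 of 9 features detected each, are near the 16.7% of all mouse miRNAs. GUGUGUG features were searched only among those with a sequence, of which 15.9% were detected in at least 1 isolation. Their count, 8 of 9 with miR-206-3p included, is far above this share.

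A feature of sequence that miR-206-3p shares with other detected miRNAs lies outside its seed, in the alternating U and G near its 3′ end. The motif GUGUGUG was searched on the RNA strand in the 867 array features with a RefSeq sequence (80.4% of all), and 9 of them (1.04%) hold it. They are shown with the leftmost copy of the motif in capitals, since the position differs between them.
miR-206-3p (chr1:20679055-20679076, plus strand): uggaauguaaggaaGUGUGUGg
miR-3097-5p (chr5:35021050-35021072, plus strand): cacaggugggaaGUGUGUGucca
miR-574-5p (chr5:64970328-64970350, plus strand): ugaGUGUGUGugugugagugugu
miR-3082-5p (chr17:25831406-25831427, minus strand): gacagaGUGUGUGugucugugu
miR-1187 (chr5:82798964-82798986, minus strand): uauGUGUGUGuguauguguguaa
miR-669n (chr3:115979905-115979924, plus strand): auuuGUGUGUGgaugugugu
miR-32-3p (chr4:56895232-56895252, minus strand): caauuuaGUGUGUGugauauu
miR-672-5p (chrX:104116228-104116250, minus strand): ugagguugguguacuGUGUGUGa
miR-466k (chr3:85467396-85467418, plus strand): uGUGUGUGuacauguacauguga
Among the features with a sequence, detection was much more frequent for these 9 than for the rest. At least 1 isolation detected 8 of the 9 (88.9%), against 130 of the 858 features without the motif (15.2%), and all 3 isolations detected 7 of the 9 (77.8%), against 49 of 858 (5.71%). This is a description of these arrays, and a motif match is not evidence of how a probe gained its signal. miR-206-3p is 1 of the 9. The motif was looked for because of its sequence, and it was chosen as a detected miRNA. Its own detection was thus fixed in advance. Without miR-206-3p, 6 motif features were detected in all 3 isolations. The search also left out most features named miR-297, miR-466, miR-467 or miR-669, names chosen after seeing the data. Only 7 of these 62 have a sequence, and 17 of the 62 were detected in at least 1 isolation. Whether those without a sequence hold the motif was not determined, so the shares cover the searched features only. With the shorter motif UGUGUG, 11 of 15 features were detected in at least 1 isolation, and with GUGUG 14 of 28.

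Within the GUGUGUG group, miR-206-3p was the dimmest of the 7 features detected in all isolations. The brightest, miR-574-5p, had signals of 465, 1090 and 764 in isolations 1, 2 and 3. miR-672-5p, the next above miR-206-3p, had signals of 47.9, 129 and 73.3. Below miR-206-3p was miR-3097-5p, which was not detected in isolation 1 and had signals of 28.5 and 7.82 in isolations 2 and 3. It shares a run of 11 bases with miR-206-3p, the longest found for any array feature with a sequence. miR-466k, in which the motif coincides with the seed, was not detected. All 8 detected features were brightest in isolation 2, as were most of the 84 miRNAs detected in all isolations. The summed signal of all detected mouse miRNAs was also highest there (13558, 42478 and 35179 in isolations 1, 2 and 3). Only array features with a RefSeq sequence could be compared base by base, which leaves out miR-1a-3p, the member that shares the seed of miR-206-3p. Among those compared, the 2 most like miR-206-3p at matching positions were miR-7a-5p and miR-190b-5p, each with the same base at 13 positions. They were detected in 0 and in 1 isolation, respectively.

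The pattern of miR-206-3p over the isolations was set beside that of the 83 other miRNAs detected in all of them. Its log2 signal in isolation 2 minus isolation 1 was 2.28 ± 0.51 (error propagated from the 2 signals), and 18 of the 84 miRNAs had a larger difference, the median being 1.37. In isolation 3 minus isolation 2 it was -0.79 ± 0.30, and 72 of the 84 miRNAs had a value above this, the median being -0.36. The other 6 GUGUGUG features had differences of 1.16 to 1.50 between isolations 2 and 1 and of -0.81 to -0.51 between isolations 3 and 2. For the 4 mesenchymal miRNAs detected in all isolations, miR-199a-3p, miR-214-3p, miR-21a-5p and miR-22-3p, the ranges were 3.17 to 4.50 and -0.45 to -0.30. The first difference of miR-206-3p thus lay between the mesenchymal miRNAs and the GUGUGUG features with a sequence by more than its own error. Its second difference fell within the range of these GUGUGUG features. Features without a sequence were not searched for the motif, so the ranges may not hold for all features that carry it.

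**Figure D5:**
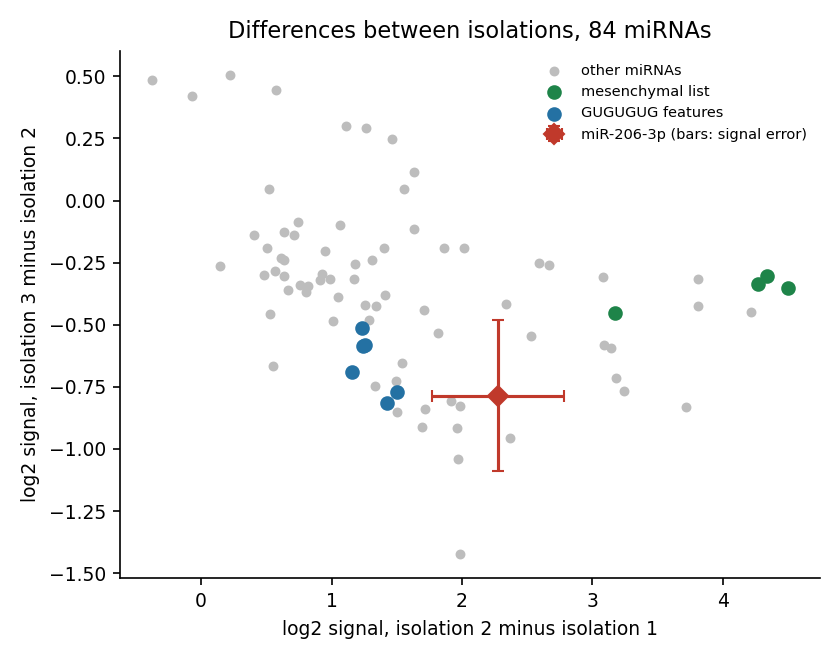
Log2 signal of isolation 3 minus isolation 2 (y axis) against isolation 2 minus isolation 1 (x axis) for the 84 miRNAs detected in all isolations, with miR-206-3p (red, bars for its propagated error) at 2.28 and -0.79. The other GUGUGUG features with a sequence (blue) are at 1.16 to 1.50 on the x axis and the mesenchymal miRNAs (green) at 3.17 to 4.50.

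The 5 miRNAs closest to miR-206-3p in this pattern, by the Euclidean distance of log2 signals centered on their mean over the 3 arrays, were miR-466c-5p (distance 0.12), miR-466f-5p (0.26), miR-669k-5p (0.30), miR-669o-5p (0.33) and miR-1306-3p (0.33), against a median distance of 0.79 over the 83. The signals of miR-466c-5p were 3.66, 6.03 and 5.07 on the log2 scale, above those of miR-206-3p in each array. Of these 5 miRNAs, 4 carry names of the miR-466 and miR-669 families, which come from repeated sequence in the mouse genome. None of these 4 has a sequence in the table searched, so whether they hold the GUGUGUG motif was not determined. Names of the miR-297, miR-466, miR-467 and miR-669 families, counted after the closest patterns were seen, make up 14 of the 84 miRNAs (16.7%). Their differences ranged from 1.16 to 2.37 between isolations 2 and 1 and from -1.42 to -0.42 between isolations 3 and 2. Both differences of miR-206-3p were matched within its error by 7 miRNAs, of which 5 have such names, with miR-1306-3p and miR-1196-5p as the others. Patterns over 3 arrays hold little information, and that of miR-206-3p rests on a reading in isolation 1 at the detection limit.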

How the data were processed

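The authors deposited 1 table per array with an intensity for each miRNA (total gene signal, linear scale), its error, also an intensity, and a detection call, made with Agilent Feature Extraction per the labels and not normalized between arrays. Total RNA of 3 MV isolations was measured (n = 3 arrays, 1 group), and the number of arrays limits the precision. Replicate numbers come from the sample titles, since the source name gives replicate 1 throughout.

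Members were taken by name from the mouse miRNA features, leaving out 57 viral and 21 control features. The members and lists were chosen with earlier results of these data known. Signals were compared as log2 values without a shift, and the 90th percentile shift named by the study was also computed. No test was run. The miRNAs named are the members, the lists, the 3 neighbors by signal on each side, the 5 closest patterns and features alike in sequence, with others counted after seeing values as stated. Mature sequences and neighboring genes are from RefSeq (GRCm38.p6), and mature names matched 867 of 1079 features. For neighboring genes, features were assigned by RefSeq mature name, by gene name and by a mature sequence held in the hairpin. Functions were tested on simulated data. Calculations used Python 3.11.15, numpy 2.4.6, pandas 2.3.3 and matplotlib 3.10.9.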

Additional observations from a re-analysis of the deposited data

How the results depend on the processing

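The detection of 1 of 9 members was unchanged for signals over 3 times their error, with at least 2 isolations required, with all 3 required and with each isolation left out. A signal above the highest negative control (0.1) is met by detected features only, so it is no further test. With a signal over 5 times its error in all isolations, chosen after seeing the data, the count was 0. The other muscle list, with 1 detected feature, had 0 with at least 2 or all isolations required and 0 with 5 times the error in at least 1 or in all isolations, and 0 to 1 on leaving out isolations in turn (0 without isolation 2). Of the Runx2 list, with 3 detected, 0 were detected in all isolations, 1 passed 5 times the error and 0 did so in all isolations. The GUGUGUG count of 8 was 7 in all isolations, 6 there at 5 times the error, 11 with UGUGUG and 14 with GUGUG.

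The mean log2 signal of miR-206-3p, 4.20, was 2.89 after quantile normalization, and 3.69 to 4.83 on leaving out isolations in turn. Its normalized value of 2.35 was 7.53 with the 75th percentile, which falls on the signal of undetected miRNAs in every isolation. The value 7.53 is thus the unshifted mean with a constant added. With the 90th percentile over miRNAs detected in all isolations, the normalized value was -4.68. On leaving out isolations in turn it was 0.38 to 3.39 (0.38 without isolation 1). With undetected miRNAs at the lowest detected signal, a setting chosen after seeing the data, it was 0.48. In isolation 1 the percentile is then that lowest signal. Its share of the signal was 0.261% without the 10 brightest miRNAs of each array. The mean place, signal over error and distance from the lowest detected signal moved by less than their SD under the alternatives run. For the place this SD is wide (24.6, in percent of the detected miRNAs), and the mean place went from 68.7% to 88.9% among miRNAs detected in all isolations. No paired analysis was possible because MVs were the only kind of sample. Levels below the detection limit are not resolved.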

Other observations

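The share of U and G bases in the mature sequence, computed after the motif counts were seen, was 72.7% for miR-206-3p. Its median was 61.9% for the 56 miRNAs with a sequence that were detected in all isolations, 57.7% for the 82 detected in 1 or 2 isolations and 54.5% for the 729 not detected. The groups overlap, with quartiles of 49.4% and 76.0% for the first group and 45.5% and 60.9% for the last. Of the 81 miRNAs with at least 70% U and G, 34 were detected in at least 1 isolation (42.0%). The figures were 29 of 182 (15.9%) from 60% to under 70%, 43 of 322 (13.4%) from 50% to under 60% and 32 of 282 (11.3%) under 50%. These are counts over features of 3 arrays of 1 kind of sample, without a test.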
